A study of Mus musculus with 10 samples.

Results

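The enzymes and the chaperone that modify, trim and crosslink collagen were followed through the stromal vascular fraction (SVF) of inguinal white adipose tissue (iWAT), the cells left after digestion of the fat pad and removal of the adipocytes. 10 genes were chosen by their symbols, from their known roles, by a rule that used no measured value although earlier results of these data were known: the lysyl and prolyl hydroxylases Plod1, Plod2, P3h3 and P4ha1, the collagen chaperone Serpinh1, the propeptide-processing genes Bmp1 and Pcolce, and the lysyl oxidases Lox, Loxl1 and Loxl2. All 10 were present among the 14623 genes of the table. The material came from 1 lean Bbs8-/- mouse (Bbs8 KO) and 1 Bbs8+/+ mouse (Bbs8 WT), both 7 weeks old. Bbs8, whose gene symbol is Ttc8, encodes a subunit of the BBSome, a protein complex that carries membrane proteins in and out of the primary cilium, and the KO mouse lacked it in all its cells. Minced tissue was digested with collagenase II and DNase I, freed of red blood cells and filtered, and single cells were profiled with Seq-Well S3, which pairs each cell with a barcoded bead in a microwell and tags each captured molecule at its 3′ end with a unique molecular identifier (UMI). The mouse is the unit of this design, so a difference between the genotypes is a difference between 1 animal and another, it had no replicate check, and no p-value was computed for it.

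Fibrillar collagens are made as procollagen chains in the endoplasmic reticulum, where prolyl hydroxylases stabilise the triple helix, lysyl hydroxylases prepare lysines for glycosylation and crosslinking, and the chaperone HSP47, the product of Serpinh1, holds the folded helix. After secretion the C-propeptide is removed by BMP1, which the product of Pcolce enhances, so that the molecules can assemble into fibrils. Lysyl oxidases then oxidise lysine and hydroxylysine side chains, which crosslink the fibrils, and the amount of such crosslinked matrix is known to bear on how adipose tissue expands and stiffens.

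The labels listed 5 samples per genotype, which the series text assigned to a single mouse each. The table named its cells by 5 barcode sets per genotype, KO5_p2, KO5_p3, KO6_p1, KO6_p2 and KO6_p3 for the KO and WT3_p1, WT3_p2, WT3_p3, WT4_p2 and WT4_p3 for the WT. These codes were not explained in the sources used here. Each genotype carried 2 numbers in its codes. The study's methods describe 2 arrays per sample, with the amplified product of each array pooled in parts, but do not tie the codes to them, so that the numbers may stand for arrays or, against the series text, for animals. The sets were treated as technical parts of 1 mouse, and values by set are given in this order throughout. The KO held 8985 cells, with 1635 to 2005 per set, and the WT 1929 cells, with 196 to 768 per set. The median cell of a set held 227.5 to 300.0 UMIs, so that most cells carried no UMI of a given member and levels were read from UMIs summed over a class. Ttc8 itself had 0 UMIs in the KO and 5 in the WT, too few to check the label of each set. 36 barcodes occurred in more than 1 set and named 103 cells.

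Clustering gave 17 clusters of at least 60 cells. By marker lists, 3 clusters with 2002 cells showed all 8 markers of a pan-stromal list and are called stromal-like. The study also names fibroblastic progenitor cells, for which no list was used here, so where such cells lie among these classes is not known. The 3 adipocyte precursor subpopulations were told apart by lists of 8 markers each, which include Dpp4 and Pi16 (P1-like, 486 KO and 208 WT cells), Icam1 and Pparg (P2-like, 721 and 313 cells) and F3 and Gdf10 (P3-like, 175 and 99 cells). All 8 markers of the list passed for P1-like and P3-like cells and 7 of 8 for P2-like cells, whose leading genes were Adam12, Fgf10, Col18a1 and Col15a1. The stromal-like class gave 673700 UMIs in the KO and 285831 in the WT, with median depths of 351.5 and 341.5 UMIs per cell. 6 clusters with 3272 KO and 429 WT cells passed no marker list and stayed unnamed. Most immune marker lists inside the stromal-like class stood higher in the KO: the 8 T cell markers summed to 528 CPM (a gene's UMIs scaled to a class total of 1000000) in the KO, with 269 to 687 over its sets, and to 143 CPM in the WT, with 0 to 196, and all 8 B cell markers stood higher in the KO as well, at 730.3 CPM summed against 192 CPM. Of these 16 markers Cd79a alone was at 0 in the WT and none in the KO. The 8 mitotic markers summed to 211 and 24.5 CPM (8 of 8 higher in the KO), the dendritic ones to 1092 and 325 CPM (8 of 8), the macrophage ones to 469 and 147 CPM (7 of 8) and the endothelial ones to 252 and 108 CPM (7 of 8). The WT had 0 UMIs of the mitotic markers Top2a, Cdk1, Tpx2, Ube2c and Cenpf, of the dendritic markers Flt3, Xcr1, Clec9a, Itgax and Ccr7, and of the endothelial marker Tie1. Monocyte markers were near level, at 1328 and 1193 CPM (5 of 8), and erythroid ones lower in the KO, at 44.5 and 189 CPM. The pan-stromal list itself summed to 74551 CPM in the KO (70988 to 83270.1 over sets) and 85372 CPM in the WT (79767 to 97357). The P2 list summed to 6380 CPM (5834 to 7148) and 8858 CPM (7896 to 11322), and the P3 list to 1743 CPM (1419 to 2101) and 2690 CPM (2606 to 2884). Both were lower in each KO set than in each WT set, while the P1 list had 2666 and 2369 CPM. The part of these lists in the differences given here was not tested.

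Summed, the 10 genes stood highest in stromal-like cells among the named classes. Their level was 4288 CPM in KO stromal-like cells (95% Poisson interval 4133 to 4448) and 4391 CPM in WT ones (4151 to 4641), against 769.5 and 1145 CPM in endothelial-like cells, 1079.7 and 1176 CPM in pericyte-like cells and 147 to 336 CPM in T cell-like and B cell-like cells of both mice. Intervals here and elsewhere cover counting error only. For 9 of the 10 genes the level in stromal-like cells was above that of each other named class in both mice, and Plod1 was the exception. Stromal-like cells held from 41.0% of all UMIs (Plod1) to 71.7% (Lox), and the unnamed clusters from 20.3% (Plod1) to 27.3% (P3h3). T cell-like and B cell-like cells make no fibrillar collagen and served as the measure of free RNA. In KO stromal-like cells the level was 6.17 (P4ha1) to 83.9 (Plod2) times that of KO T and B cell-like cells, the last resting on 1 lymphocyte UMI. For the fibrillar collagens it was 37.5 (Col5a1) to 56.2 (Col1a2) times. Whether lymphocytes make members such as P4ha1 themselves was not tested, so the P4ha1 ratio is not read as a measure of free RNA. For Loxl1 the ratio was 27.3 in the KO and 11.5 in the WT, the latter from 5 lymphocyte UMIs, while the WT ratios of Plod1 and Plod2 rest on 1 lymphocyte UMI each and are not read. The collagen transcript Col3a1 stood at 1519.7 CPM in WT and 593 CPM in KO T and B cell-like cells, so the background was not alike in the mice.

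**Figure D1:**
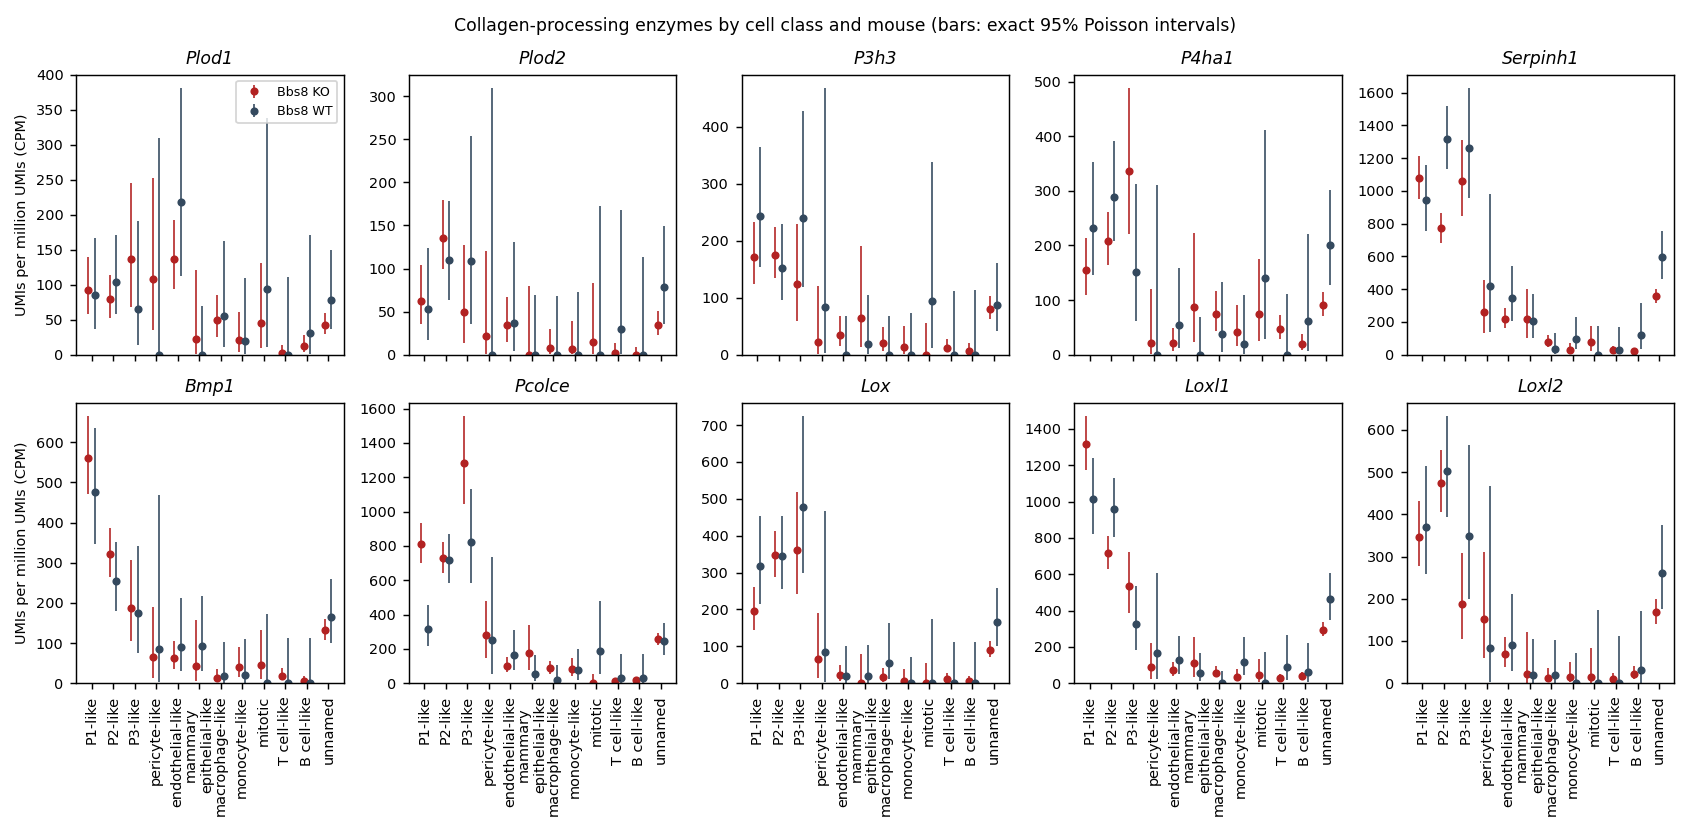
Level of each of the 10 genes (CPM, linear axis from 0) in 11 named classes and the unnamed clusters, with the KO mouse in red and the WT mouse in dark blue-grey; points are UMIs summed over all sets and bars are exact 95% Poisson intervals. The stromal classes on the left stand above the other named classes for most genes, with Plod1 an exception at 136 CPM (KO) and 218 CPM (WT) in endothelial-like cells, and the unnamed clusters lie above single subtypes for some genes, such as Loxl1 in the WT (463 against 326 CPM in P3-like cells).

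Plod1 and Plod2 encode lysyl hydroxylases, of which the first acts mainly on helical lysines and the second on telopeptide lysines. Plod1 was the member whose level in endothelial-like cells, the vessel lining, was above its stromal level in both mice: 136 CPM (95% interval 93.1 to 192, 32 UMIs) in KO endothelial-like cells against 90.5 CPM (69.3 to 116) in KO stromal-like cells, and 218 CPM (113 to 381, 12 UMIs) against 91.0 CPM (59.4 to 133) in the WT. The log2 ratio of endothelial-like over stromal-like cells was 0.56 (-0.08 to 1.23) in the KO and 1.22 (0.14 to 2.30) in the WT. Endothelial-like cells held 20.8% of all Plod1 UMIs, against 1.43% to 6.80% for the other members. Plod2 showed the usual stromal pattern, at 99.5 CPM in KO and 91.0 CPM in WT stromal-like cells and 34.0 and 36.4 CPM in endothelial-like cells.

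By barcode set, Plod1 in all stromal-like cells stood at 49.9, 79.3, 87.6, 113 and 109 CPM in the KO and at 140.0, 91.1, 89.9, 76.4 and 90.7 CPM in the WT. The sets of the mice overlapped, and the log2 ratio of KO over WT was -0.01 (95% interval -0.69 to 0.72). For Plod2 the KO sets gave 159.7, 47.6, 87.6, 106 and 109 CPM and the WT sets 140.0, 114, 225, 50.9 and 75.6 CPM, which overlapped as well, with a log2 ratio of 0.12 (-0.54 to 0.84). Here and elsewhere a log2 ratio is KO over WT on the log2(CPM + 5) scale, which draws low genes towards 0, and its interval is the exact conditional interval of the 2 counts without the added 5. With 93 Plod2 UMIs and 87 Plod1 UMIs in the class, a level 1.5-fold higher in the KO lay inside both intervals, so such a difference was not detectable at this depth. Among subtypes Plod2 was lower in P1-like than in P2-like cells of both mice, at 62.8 against 135 CPM in the KO and 52.9 against 110.2 CPM in the WT, but the WT values rested on 5 and 16 UMIs and 2 of 5 WT sets had the opposite order.

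P3h3 encodes a prolyl 3-hydroxylase family member that works in the lysyl hydroxylation complex of the endoplasmic reticulum, and P4ha1 the catalytic subunit of a prolyl 4-hydroxylase, the enzyme that makes the 4-hydroxyproline on which helix stability rests. P3h3 stood at 168 CPM (95% interval 138 to 202) in KO and 196 CPM (148 to 254) in WT stromal-like cells. Set by set it gave 169.6, 111, 206, 177 and 164 CPM in the KO and 112, 114, 359, 263 and 121 CPM in the WT. The sets overlapped, although the 2 highest values were both from the WT, and the log2 ratio was -0.22 (-0.70 to 0.26).

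P4ha1 stood at 205 CPM (172 to 242) in KO and 248 CPM (194 to 313) in WT stromal-like cells, with 249, 166, 181, 219.7 and 219 CPM in the KO sets and 224, 273, 179.7, 297 and 181 CPM in the WT sets. These ranges overlapped, with the 2 highest WT sets above all KO sets, and the log2 ratio was -0.27 (-0.70 to 0.16). P4ha1 was the member with the largest share of its UMIs outside the stroma and endothelium: 73.6 CPM (18 UMIs) in KO macrophage-like cells and 47.5 CPM (20 UMIs) in KO T cell-like cells, where the WT had 0 UMIs, which allows up to 90.6 CPM. Between subtypes the order of P4ha1 differed from mouse to mouse. P3-like cells were highest in the KO, at 336 CPM from 27 UMIs, and lowest in the WT, at 152 CPM from 7 UMIs, so this order rests on few counts.

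Serpinh1 gave the most UMIs of the 10 genes in stromal-like cells, 615 in the KO and 338 in the WT, and so had the narrowest intervals. Its level was 913 CPM (842 to 988) in the KO and 1183 CPM (1059.8 to 1316) in the WT, with KO sets at 1038, 848, 1001, 850.3 and 848 CPM and WT sets at 1120.0, 1093, 1752, 1222 and 1013 CPM. The WT sets lay higher, but the lowest of them stood below the highest KO set, so the mice overlapped. The log2 ratio was -0.37 (-0.57 to -0.18), under the 1.5-fold line used here. Under TMM scaling and DESeq2 size factors, which moved all genes of the class by -0.15 and -0.18, it was -0.52 and -0.55. It was past the line with cells called by markers (-0.62) and with the unnamed clusters counted as stromal-like (-0.73).

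P2-like cells held the larger difference. KO P2-like cells gave 948, 666, 871, 733 and 660.5 CPM of Serpinh1 and WT P2-like cells 1195, 1398, 1682, 1289 and 1231 CPM, so that each KO set lay below each WT set. Summed, this was 770.3 CPM (682 to 867) against 1315 CPM (1135 to 1515), 1.70-fold lower in the KO, with a log2 ratio of -0.77 (-1.04 to -0.50). The order was not the same in P1-like cells: 1119, 1057, 1099.7, 944 and 1165 CPM in the KO and 658, 631, 1407, 1152 and 842 CPM in the WT, with a log2 ratio of 0.19 (-0.16 to 0.56). P3-like cells gave 1057 CPM in the KO and 1259.9 CPM in the WT, a log2 ratio of -0.25 (-0.75 to 0.25). The P2-like difference stayed past 1.5-fold with any 1 barcode set left out (log2 -0.83 to -0.71), and was -0.48 where the sets were clustered without integration. In the same P2-like cells the T cell markers summed to 511 CPM in the KO and 151 CPM in the WT (8 of 8 higher in the KO), the B cell markers to 683 and 165 CPM, the dendritic ones to 1171 and 289 CPM, the macrophage ones to 567 and 151 CPM, the mitotic ones to 203 and 27.5 CPM, the endothelial ones to 271 and 82.6 CPM and the pan-stromal list to 74065 CPM (69914 to 85677 over sets) and 87122 CPM (83048 to 93468). The 8 P2 markers, which name the subtype, summed to 9791 CPM in the KO (8797 to 10994 over sets) and 13302 CPM in the WT (12312 to 14978), lower in each KO set than in each WT set (log2 -0.44). The part of these lists in the Serpinh1 difference was not tested.

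Within each mouse the P1-like and P2-like cells stood in opposite order for Serpinh1. In the KO, P1-like cells exceeded P2-like cells in 5 of 5 sets, with a log2 ratio of 0.48 (0.23 to 0.73). In the WT, P1-like cells were below P2-like cells in 5 of 5 sets, with a log2 ratio of -0.48 (-0.86 to -0.11). Per 1000 UMIs of the 5 fibrillar collagen genes Col1a1, Col1a2, Col3a1, Col5a1 and Col5a2, P2-like cells held 11.8 Serpinh1 UMIs in the KO (10.1 to 14.1 over sets) and 17.9 in the WT (15.3 to 22.5), so the sets did not overlap on this scale.

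Bmp1 encodes the C-proteinase that cuts the procollagen propeptide and also activates pro-lysyl oxidase, and Pcolce the enhancer that binds the propeptide and speeds that cut. Bmp1 stood at 390.4 CPM (345 to 441) in KO and 315 CPM (253 to 387) in WT stromal-like cells. Its KO sets were 539, 254, 406, 361 and 417 CPM and its WT sets 224, 501, 89.9, 255 and 423 CPM. The WT sets reached below the KO range and overlapped it up to 501 CPM, under the highest KO set, and the log2 ratio was 0.31 (-0.04 to 0.67). Among the subtypes, P1-like cells stood above P2-like cells in 5 of 5 sets of each mouse, at 561 against 322 CPM in the KO and 476 against 255 CPM in the WT, and P3-like cells were lowest, at 187 and 174 CPM. The log2 ratio of P1-like over P2-like cells was 0.79 (0.43 to 1.18) in the KO and 0.89 (0.24 to 1.57) in the WT. 5 of the 10 members were among the 2000 variable features that formed the clusters, so subtype differences are a description. Where all members and other collagen-processing genes were kept out of those features, the 2 ratios for Bmp1 were 0.92 and 1.21.

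In all stromal-like cells Pcolce stood at 825 CPM (758 to 897) in the KO and 602 CPM (515 to 699) in the WT, a log2 ratio of 0.45 (0.21 to 0.71). The KO sets gave 918, 706, 888, 794 and 827 CPM and the WT sets 252, 569, 719, 560.2 and 847 CPM, which overlapped through WT4_p3 and WT3_p3, and without WT4_p3 the log2 ratio was 0.64 and past the 1.5-fold line. It was 0.13 with cells called by markers in place of clusters and 0.045 with the unnamed clusters counted as stromal-like.

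In P1-like cells Pcolce gave 833, 804, 675, 1003 and 750.1 CPM in the KO sets and 73.1, 421, 0, 307 and 487 CPM in the WT sets. Each KO set lay above each WT set, although WT3_p3 held only 15 P1-like cells. Summed, 194 UMIs gave 812 CPM (702 to 935) in the KO and 30 UMIs gave 317 CPM (214 to 453) in the WT, 2.54-fold higher in the KO, with a log2 ratio of 1.34 (0.80 to 1.96). The ratio was past 1.5-fold in the same direction under all 23 alternatives run for it, from 1.17 to 1.60. The T cell markers summed to 544 CPM in KO and 137 CPM in WT P1-like cells and the B cell markers to 787 and 190.4 CPM, all 16 higher in the KO, with the T cell markers Cd3g, Lef1 and Tcf7 at 0 in the WT. The macrophage markers summed to 318 and 74.0 CPM (8 of 8 higher in the KO) and the mitotic ones to 251 and 31.7 CPM (7 of 8). The dendritic ones summed to 950 CPM (730 to 1601 over sets) and 444 CPM (0 to 589), and the endothelial ones to 226 and 137 CPM. Lower in the KO were the monocyte list, at 1164 and 1449 CPM, and the pan-stromal list, at 71797 and 78593 CPM. The P3 markers, of the subtype where Pcolce was highest, summed to 695 CPM in the KO (570.1 to 829.6 over sets) and 1449 CPM in the WT (911 to 1860.3), lower in each KO set than in each WT set. The P2 markers summed to 2026 CPM (1757 to 2404) and 3173 CPM (1892 to 6432), which overlapped. The part of these lists in the Pcolce difference was not tested. Pcolce stood at 14.2 and 30.4 CPM in T and B cell-like cells of the KO and the WT themselves. In P2-like cells the KO sets of 909, 592, 871, 538 and 737 CPM and the WT sets of 119.5, 699, 801, 702 and 1021 CPM overlapped, and the log2 ratio was 0.03 (-0.30 to 0.37). P3-like cells gave 1281 CPM (1046 to 1554) in the KO and 825 CPM (584 to 1133) in the WT, a log2 ratio of 0.63 (0.08 to 1.21) from 103 and 38 UMIs.

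The same values read within each mouse placed Pcolce differently among the subtypes. It was highest in P3-like cells of both mice. The log2 ratio of P3-like over P2-like cells was 0.81 (0.47 to 1.14) in the KO, with P3-like cells higher in 5 of 5 sets. In the WT it was only 0.20 (-0.37 to 0.75), with P3-like cells higher in 3 of 5 sets. The P1-like level was the lowest in the WT, with a log2 ratio of P1-like over P2-like cells of -1.16 (-1.81 to -0.58) and P1-like below P2-like cells in 5 of 5 sets. In the KO the P1-like over P2-like ratio was 0.15 (-0.12 to 0.43), with P1-like cells higher in 3 of 5 sets.

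**Figure D2:**
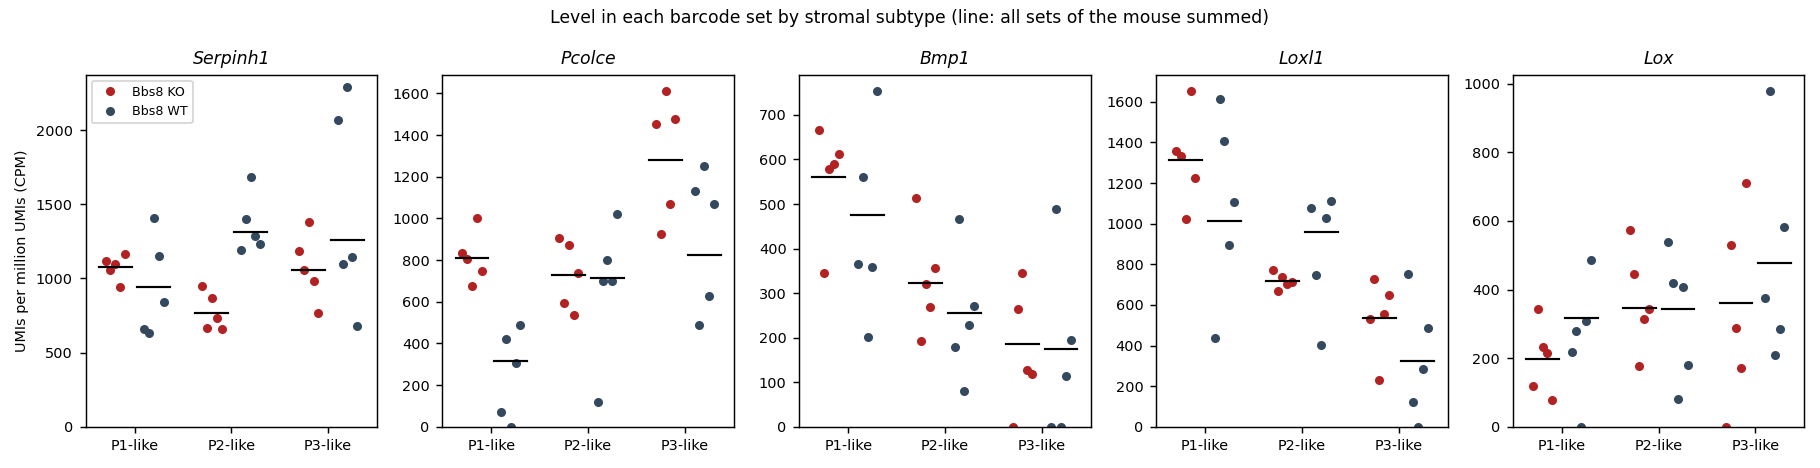
Level of Serpinh1, Pcolce, Bmp1, Loxl1 and Lox (CPM, linear axes from 0) in the 3 stromal subtypes, with 1 point per barcode set (5 KO sets in red, 5 WT sets in dark blue-grey) and a black line for all sets of a mouse summed. The KO points of Pcolce in P1-like cells (675 to 1003) lie above all WT points (0 to 487), and the KO points of Serpinh1 in P2-like cells (660.5 to 948) lie below all WT points (1195 to 1682).

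Serpinh1 and Pcolce are the members on which the differences between the mice turn, and the 250 bases before their annotated starts are shown for that reason (RefSeq, GRCm38.p6; the table used here held the promoters of 5 of the 10 members). Serpinh1 (ENSMUSG00000070436) lies at chr7:99345376-99353239 on the minus strand and its promoter at chr7:99353240-99353489. Pcolce (ENSMUSG00000029718) lies at chr5:137605103-137613784 on the minus strand, overlapping Fbxo24 on the same strand and the antisense gene Gm36266, and the promoter shown, chr5:137611405-137611654, precedes the RefSeq start, which lies inside the GENCODE gene. Both sequences are written 5′ to 3′ on the minus strand, and capitals mark matches on either strand to the GC box GGGCGG, the CCAAT box CCAAT, the TATA box TATAAA or the hypoxia response core ACGTG, none of which overlapped another.
Serpinh1: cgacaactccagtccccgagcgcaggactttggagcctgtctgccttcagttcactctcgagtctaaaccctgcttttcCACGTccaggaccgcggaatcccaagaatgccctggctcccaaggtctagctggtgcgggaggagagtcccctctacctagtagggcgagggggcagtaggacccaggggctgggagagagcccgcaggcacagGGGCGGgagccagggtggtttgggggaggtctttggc
Pcolce: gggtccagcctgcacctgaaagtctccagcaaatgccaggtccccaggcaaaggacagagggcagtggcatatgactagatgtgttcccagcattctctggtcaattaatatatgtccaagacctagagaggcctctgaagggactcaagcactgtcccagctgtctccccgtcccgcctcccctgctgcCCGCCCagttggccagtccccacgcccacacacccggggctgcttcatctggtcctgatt
Serpinh1 held 1 GC box, starting 37 bases before the annotated start, and 1 hypoxia response core, 171 bases before it, and Pcolce held 1 GC box, 60 bases before its start. Among the 32851 promoter windows of the table, 32.7% held a GC box, 33.8% a CCAAT box, 12.4% a TATA box and 16.6% the hypoxia response core in the same 250 bases. These matches are a description of the letters in the window, and no measurement here bears on them.

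Lox, Loxl1 and Loxl2 encode lysyl oxidases, the copper enzymes that start crosslinking. Loxl1 is also known for its part in elastic fibre upkeep, and Loxl2 for crosslinking the collagen IV of basement membranes. Lox stood at 295 CPM (256 to 339) in KO and 357 CPM (291 to 433) in WT stromal-like cells, against 21.3 and 18.2 CPM in endothelial-like cells. The KO sets gave 339, 420.1, 206, 255 and 294 CPM and the WT sets 392, 478, 89.9, 357 and 348 CPM. Apart from WT3_p3, whose value rested on 2 UMIs, the WT sets lay in the upper part of the KO range or above it, and the log2 ratio was -0.27 (-0.62 to 0.09). In P1-like cells Lox was 1.60-fold lower in the KO, at 197 CPM (145 to 262) against 317 CPM (214 to 453), with KO sets of 119, 345, 232, 216 and 79.0 CPM and WT sets of 219, 280.3, 0, 307 and 487 CPM. These sets overlapped from end to end, the log2 ratio of -0.68 had an interval of -1.38 to 0.02, and it fell inside the 1.5-fold line without KO5_p2 (-0.56), KO6_p3 (-0.47) or WT4_p3 (-0.42). Where the sets were clustered without integration it was 0.13.

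Loxl1 had a level of 907 CPM (836 to 982) in KO and 875 CPM (769.6 to 990.1) in WT stromal-like cells. Its sets stood at 998, 904, 775, 1020.4 and 882 CPM in the KO and at 784, 911, 539, 874 and 1013 CPM in the WT, which overlapped, with a log2 ratio of 0.05 (-0.16 to 0.27). The subtypes stood in opposite order. P1-like cells had 1314 CPM in the KO and 1015 CPM in the WT, KO over WT 0.37 on the log2 scale (0.04 to 0.72), and P2-like cells had 717 and 957 CPM, a log2 ratio of -0.41 (-0.72 to -0.11). Neither passed 1.5-fold, and the WT sets (439 to 1612 CPM in P1-like and 400.5 to 1111 CPM in P2-like cells) overlapped the KO sets (1023 to 1651 CPM and 666 to 770.3 CPM) in both. In the KO, P1-like cells stood above P2-like cells in 5 of 5 sets, with a log2 ratio of 0.87 (0.63 to 1.12), and in the WT in 2 of 5 sets, with a ratio of 0.08 (-0.31 to 0.47).

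Loxl2 stood at 395 CPM (349 to 445) in KO and 434 CPM (361 to 517) in WT stromal-like cells. The KO sets were 419, 349, 344, 361 and 506 CPM and the WT sets 364, 433, 314, 475 and 438 CPM, which overlapped, with a log2 ratio of -0.13 (-0.45 to 0.18). P2-like cells had the highest level in both mice, at 474 and 503 CPM, against 347 and 370.2 CPM in P1-like cells, and the lower P3-like values of 187 and 348 CPM rested on 15 and 16 UMIs.

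**Figure D3:**
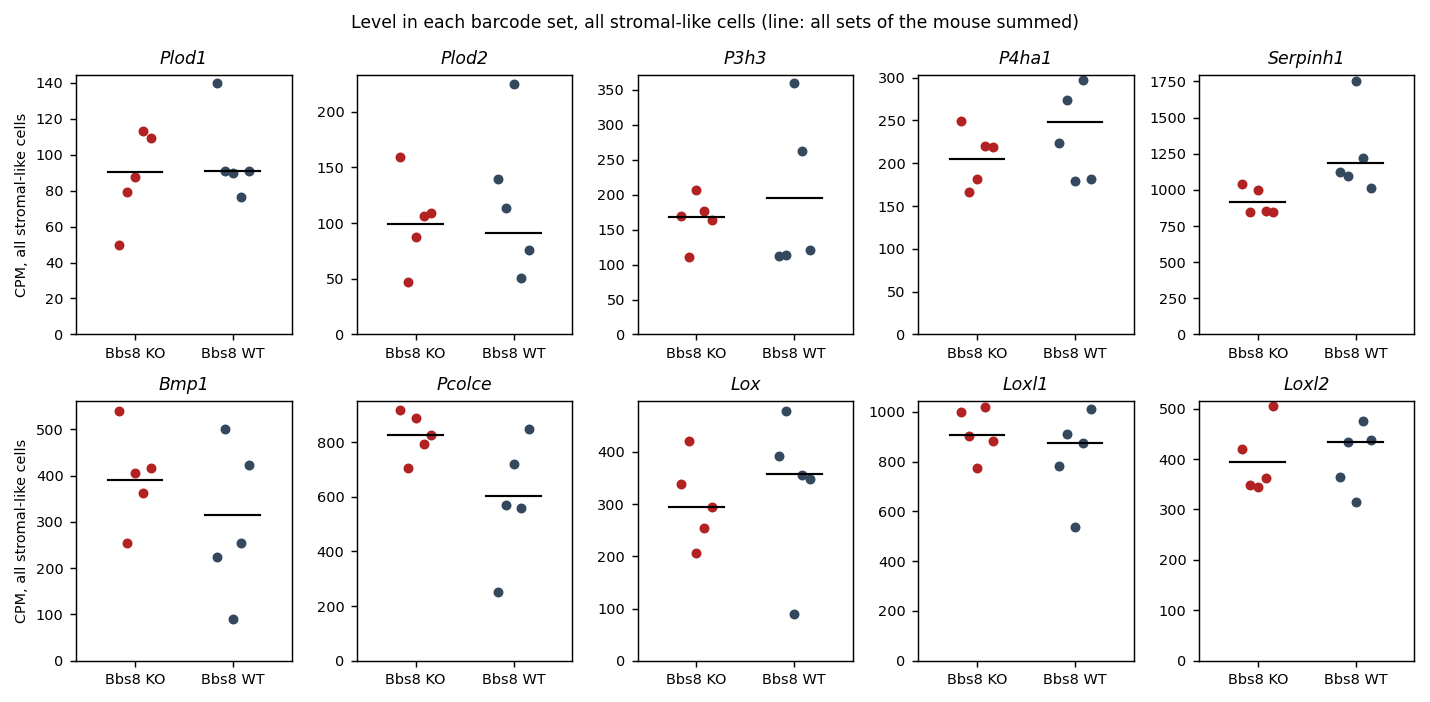
Level of each of the 10 genes in all stromal-like cells (CPM, linear axes from 0), with 1 point per barcode set and a black line for all sets of a mouse summed. The points of the KO (red) and the WT (dark blue-grey) overlap for all 10 genes, most narrowly for Serpinh1, whose highest KO set (1038) lies just above the lowest WT set (1013).

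Read over all stromal-like cells, none of the 10 genes was past 1.5-fold in either direction, and for none did the barcode sets of the mice stand apart. Of the 6521 genes with at least 20 UMIs in the class, 24.2% were 1.5-fold or more higher in the KO, 10.7% were 1.5-fold or more lower, and 4.97% had sets that did not overlap. The median log2 ratio was -0.07 for the 10 genes and 0.12 for all genes tested. In P1-like cells 1 of 10 was past 1.5-fold higher (Pcolce; 21.5% of 2641 genes tested) and 1 of 10 lower (Lox; 17.8%), and the sets of 1 stood apart (Pcolce; 3.22%). In P2-like cells 0 of 10 were past 1.5-fold higher (24.0% of 4198 genes) and 1 of 10 was lower (Serpinh1; 14.6%), and the sets of 1 stood apart (Serpinh1; 3.88%). In these 3 classes the share of members past the fold was under that of all genes in each direction.

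P3-like cells held 8 members with at least 20 UMIs, which had few counts each. Loxl1, Pcolce and P4ha1 were past 1.5-fold higher in the KO (21.0% of 849 genes tested) and Loxl2 and P3h3 lower (17.2%), and the sets of none stood apart (2.71%). The log2 ratios were 0.71 (-0.16 to 1.67) for Loxl1, 1.12 (-0.09 to 2.59) for P4ha1, -0.88 (-2.02 to 0.21) for Loxl2 and -0.91 (-2.33 to 0.43) for P3h3, so that of the 5 genes only Pcolce had an interval on 1 side of 0. Without single sets, Loxl1 (0.53 without WT3_p2), Pcolce (0.44 without WT4_p2) and P3h3 (-0.55 without WT3_p2) fell inside the 1.5-fold line. With cells called by markers P4ha1 turned to -0.41, and with no integration Loxl1 was 0.0052. In these cells the P2 markers summed to 4279 CPM in the KO (3489 to 5126 over sets) and 6517 CPM in the WT (5643 to 6969), the T cell markers to 559.8 and 130.3 CPM and the dendritic ones to 1169 and 195 CPM, and their part in these differences was not tested. Plod1 (14 UMIs) and Plod2 (9 UMIs) were under the minimum in this subtype.

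**Figure D4:**
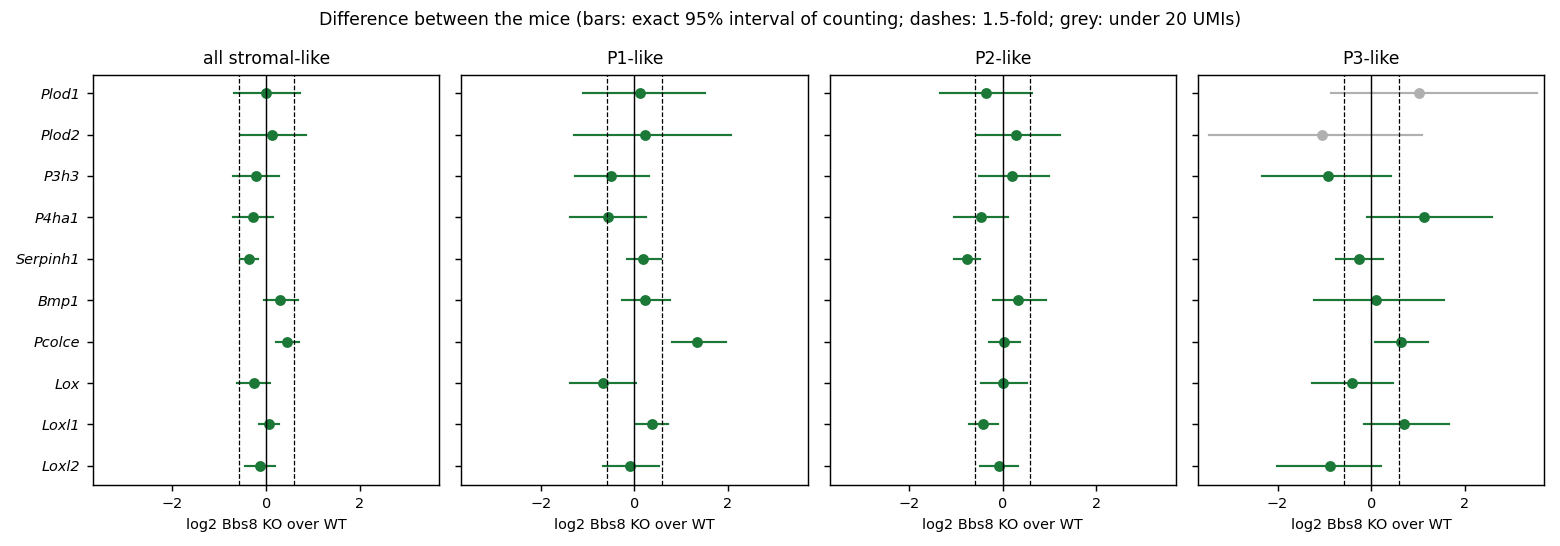
Log2 ratio of KO over WT for each of the 10 genes in all stromal-like cells and in each subtype; points are ratios of CPM + 5, bars are exact 95% intervals of the counts, dashed lines mark 1.5-fold and grey marks genes with fewer than 20 UMIs. In all stromal-like cells the 10 points lie between -0.37 (Serpinh1) and 0.45 (Pcolce), inside the dashed lines, while Pcolce in P1-like cells (1.34) and Serpinh1 in P2-like cells (-0.77) lie outside with intervals that do not reach 0.

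Summing the 10 genes gave a small difference of opposite sign in the main subtypes. P1-like cells had 4789 CPM in the KO (4399 to 5289 over sets) and 4051 CPM in the WT (2487 to 4562), a log2 ratio of 0.24 (0.07 to 0.41), and P2-like cells had 3959 CPM (3466 to 4977) and 4744 CPM (3925 to 4994), a log2 ratio of -0.26 (-0.39 to -0.13). The sets overlapped in both. P3-like cells had 4255 and 3975 CPM, a log2 ratio of 0.10 (-0.17 to 0.36). With cells called by markers these ratios were 0.030, -0.40 and -0.23, and with no integration the P2-like ratio was -0.11. Per 1000 UMIs of the 5 fibrillar collagens, stromal-like cells carried 68.7 UMIs of the 10 genes in the KO (64.8 to 70.2 over sets) and 63.7 in the WT (46.7 to 70.4). The log2 ratio of these values was 0.11 (0.01 to 0.20), and -0.076 where Col1a1 alone was the denominator. P1-like cells carried 80.5 in the KO and 64.5 in the WT (log2 0.32, 0.15 to 0.49) and P2-like cells 60.9 and 64.7 (-0.09, -0.22 to 0.05), and P3-like cells 71.2 and 58.7 (0.28, 0.014 to 0.54). Col1a1 alone was not used as the denominator in single subtypes. In P1-like cells Col1a1 stood at 5974 to 6869 CPM in the KO sets and at 3925 to 5559 CPM in the WT sets. Each KO set lay above each WT set, so the P1-like ratio holds for the 5 genes summed and not for Col1a1.

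The share of stromal-like cells with at least 1 UMI followed the same lines. After each cell was thinned to 200 UMIs, with 209 KO and 58 WT cells of lower depth left out, Serpinh1 was seen in 14.7% of KO cells (95% Clopper-Pearson interval 12.8 to 16.9) and 20.6% of WT cells (17.4 to 24.2), and Pcolce in 14.1% (12.1 to 16.2) and 9.96% (7.62 to 12.7). Without thinning the shares were 30.0% and 35.5% for Serpinh1 and 25.5% and 18.9% for Pcolce. T and B cell-like cells, which should lack both, had a thinned share of 0.562% and 1.80% for Serpinh1 and 0.337% and 0.599% for Pcolce, at median depths of 264 and 231 UMIs. In P1-like cells the thinned share of Pcolce was 14.2% (10.97 to 17.99) in the KO and 6.52% (3.42 to 11.1) in the WT, and in P2-like cells that of Serpinh1 was 12.7% (10.2 to 15.6) and 22.4% (17.7 to 27.7). The least seen members were Plod1, at 1.36% and 1.78% of stromal-like cells, and Plod2, at 1.96% and 1.78%.

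Outside the stroma, counts allowed a ratio between the mice for 6 genes in endothelial-like cells, all of them lower in the KO with intervals that included 0, while the 10 genes summed had a log2 ratio of -0.57 (-0.99 to -0.14). How many of all genes stood lower there was not computed, so this count is not read as a result about the members. Serpinh1 had 217 CPM in the KO and 345 CPM in the WT, a log2 ratio of -0.66 (-1.46 to 0.17), and Plod1 a ratio of -0.66 (-1.68 to 0.41). In T and B cell-like cells Serpinh1 had 26.1 CPM in the KO and 76.0 CPM in the WT, and Loxl1 33.2 and 76.0 CPM. Loxl2 (15.4 and 15.2 CPM) and Bmp1 (11.9 and 0 CPM) did not stand higher in the WT there. The part of free RNA in the endothelial ratios was not tested. Pericyte-like cells held 259 and 420.0 CPM of Serpinh1 and 281 and 252 CPM of Pcolce, from at most 13 UMIs each. In macrophage-like cells Pcolce had 21 UMIs in the KO and 1 in the WT, a log2 ratio of 1.95 (-0.42 to 7.58).

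The rest of the collagen-processing machinery was read from a list of 30 genes, of which 28 were in the table and 21 had at least 20 UMIs in stromal-like cells. Of these 21, 5 were past 1.5-fold higher in the KO (24.2% of all genes) and 3 lower (10.7%), for none did the sets stand apart (4.97%), and their median log2 ratio was -0.08. The 5 higher genes were Crtap, a subunit of the prolyl 3-hydroxylation complex (0.98, 0.23 to 1.95), the collagen galactosyltransferase Colgalt1 (0.67, 0.19 to 1.22), the lysyl oxidase Loxl3 (0.60, -0.17 to 1.54), and the COPII coat genes Sec23a (0.78, -0.15 to 2.03) and Sec31a (0.80, 0.31 to 1.36), which serve procollagen export from the endoplasmic reticulum. The 3 lower genes were Pcolce2, a paralogue of Pcolce (-0.64, -0.88 to -0.41), the secretory transcription factor gene Creb3l1 (-0.72, -1.39 to -0.12), and Fbln5, an elastic fibre protein that binds Loxl1 (-0.99, -1.49 to -0.55).

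Pcolce2 stood in the opposite order to Pcolce, at 555 CPM in the KO and 868 CPM in the WT. Among the listed genes with the most UMIs, Postn, which helps to bring BMP1 to its substrate, had 3748 and 4118 CPM (-0.14, -0.24 to -0.03), P4hb, the other subunit of prolyl 4-hydroxylase, 925 and 1032 CPM (-0.16, -0.36 to 0.05), and the N-proteinase Adamts2 813 and 773 CPM (0.07, -0.15 to 0.31). In P1-like cells Postn had 1389.7 CPM in the KO and 2856 CPM in the WT, a log2 ratio of -1.04, with each KO set below each WT set, and Sec31a had 222 and 84.6 CPM, a log2 ratio of 1.34 (0.31 to 2.67), with each KO set above each WT set. These were the 2 of 18 listed genes whose sets stood apart there, against 3.22% of all genes tested. Postn is also among the 10 leading genes of the P2-like cluster, and the P2 markers had a log2 ratio of -0.65 in the same P1-like cells, whose part in the Postn difference was not tested.

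Over the 24 points of 12 classes and 2 mice, the genes whose level ran most nearly with a member were ranked by Pearson's r. Highest were Rarres2 (Pearson r = 0.96), Col6a2 (0.95) and Col6a1 (0.93) for Serpinh1, Antxr1 (0.94), Itih5 (0.91) and Nbl1 (0.90) for Bmp1, Col6a1 (0.94), Nid1 (0.93) and Angptl2 (0.93) for Loxl2, Cd248 (0.93), Serpinh1 (0.89) and Igfbp6 (0.89) for Loxl1, Tmem119 (0.92), Col5a1 (0.92) and Col6a1 (0.91) for Lox, and Lama2 (0.90), Ogn (0.89) and Col3a1 (0.88) for Pcolce. P3h3 ran with Il11ra1 (0.84), Serpinf1 (0.84) and Rcn1 (0.84), P4ha1 with Mfap2 (0.84), Igsf10 (0.82) and Lrrc17 (0.80), and Plod1 with Nav1 (0.83), Igsf10 (0.78) and Serpinb6a (0.76). The points share the 2 mice and their depth and were few, 3659 genes with at least 200 UMIs were searched, and these values are a description. Plod2, with 147 UMIs in all, was too sparse to enter.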

How the data were processed

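Seq-Well S3 libraries came from the iWAT SVF of 1 Bbs8 KO and 1 Bbs8 WT mouse. Per the labels, the submitters' processing notes and the study's methods, the authors demultiplexed reads with bcl2fastq 2.20, aligned them with STAR to mm10, thinned the libraries to a common depth and filtered cells, and deposited whole-number UMI counts per gene and cell, with no normalization. Cells of the table held 101 to 994 genes and up to 19.96% mitochondrial UMIs. All 10914 cells were used. Columns were assigned to a genotype by the code in their names, and 0 columns were left unused.

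The 10 sets were integrated and clustered again with Seurat 5.3.0 (2000 variable features, 30 dimensions, resolution 0.8). Clusters of at least 60 cells were named where a marker list had a mean log2 fold above 0.5 with at least 3 markers, and "-like" marks such names, so shares may differ from the study's own classes. Scrublet marked 25 cells (0.229%), was judged not to have worked, and doublets were kept. Members and lists were chosen with earlier results of these data known, although the rule for members used no measured value. All members were named, and other listed genes if past 1.5-fold or among the 4 with the most UMIs, and for each member of at least 200 UMIs the 3 genes with the highest r.

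UMIs were summed per mouse and class and given as CPM of all UMIs, of which Gm42418 took 14.2%. Lists of T and B cell markers were read in each class. Ratios used an added 5 CPM, calls a 1.5-fold line and at least 20 UMIs, and intervals (95%, exact) cover counting error only, since PCR copies were collapsed by UMI but cells share 1 mouse. A count of 0 allows up to 3 UMIs. The ratio step was tested on simulated counts. Gene positions came from GENCODE on GRCm38. Whether the counting used strand is not given in the sources used here, so overlapping genes (Fbxo24 for Pcolce, antisense genes for Lox, Loxl2 and Pcolce) may share UMIs. Alternatives were TMM (edgeR 4.0.16), DESeq2 1.42.0 size factors, other pseudocounts, filters and clusterings, and each set left out. No test across samples was made.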

Additional observations from a re-analysis of the deposited data

Results flagged for a closer look

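Serpinh1 stood in opposite order between P1-like and P2-like cells of the mice: the log2 ratio of P1-like over P2-like cells was 0.48 in the Bbs8 KO, higher in 5 of 5 sets, and -0.48 in the Bbs8 WT, lower in 5 of 5 sets. The difference between the mice was not tested, since each genotype was 1 mouse, and it was found among 30 contrasts of a member between subtypes. With cells called by markers in place of clusters, the WT ratio was -0.08.

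In 4 of 63 groups of 5 barcode sets with at least 20 UMIs, 1 set lay far from the others by Dixon's test at a critical value of 0.71, where chance gives about 1 group in 20. These were Plod1 in WT stromal-like cells (140.0 CPM in WT3_p1, from 5 UMIs, next 91.1 CPM), P4ha1 in KO P2-like cells (277 CPM in KO5_p2, next 209 CPM), Serpinh1 in WT stromal-like cells (1752 CPM in WT3_p3, next 1222 CPM) and Bmp1 in KO P1-like cells (345 CPM in KO5_p3, next 579 CPM).

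The unnamed clusters, which belong to no named class, held the 10 genes at 1546 CPM summed in the KO (95% interval 1462 to 1635) and 2340.0 CPM in the WT (2068 to 2638), above the 147 to 336 CPM of T cell-like and B cell-like cells. Serpinh1 had 357 and 594 CPM there and P4ha1 90.7 and 201 CPM.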

How the results depend on the processing

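All 23 alternatives left Pcolce in P1-like cells past 1.5-fold higher in the KO (log2 1.17 to 1.60), and 22 of 23 left Serpinh1 in P2-like cells past 1.5-fold lower, the exception being no integration (-0.48). Lox in P1-like cells reversed to 0.13 with no integration, and P4ha1 in P3-like cells to -0.41 with cells called by markers. Summed over the 10 genes, the log2 ratio in all stromal-like cells (-0.03) moved to -0.19 under TMM scaling, -0.21 under DESeq2 size factors, -0.35 with cells called by markers and -0.44 with unnamed clusters counted as stromal-like, an alternative chosen after seeing the data. With cells called by markers it was 0.030 in P1-like, -0.40 in P2-like and -0.23 in P3-like cells, and with no integration -0.11 in P2-like cells. Per fibrillar UMI in all stromal-like cells it was -0.076 with Col1a1 alone, which was not run in single subtypes.

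Members past 1.5-fold in all stromal-like cells numbered 1 higher with cells of at least 200 genes, 3 lower with cells called by markers and 3 lower with unnamed clusters added. In P1-like cells 2 were lower without Gm42418 and mitochondrial genes, with cells of at least 200 genes, at resolution 1.2, with cells called by markers and without repeated barcodes (also chosen after seeing the data), and 0 with no integration or with members kept out of the features. In P2-like cells 2 were lower under DESeq2 size factors or with members kept out of the features, 0 with no integration and 4 with cells called by markers, and 1 was higher with cells of at least 200 genes. In P3-like cells 1 was higher with members kept out of the features, 0 higher and 1 lower with cells called by markers, and 0 lower at a minimum of 50 UMIs. Of the other collagen-processing genes, 3 were higher under TMM scaling or DESeq2 size factors, 2 with cells called by markers and 2 with unnamed clusters added (5 lower), and 1 was lower with no integration. 5 members had a larger share of KO cells with a UMI without thinning, against 3 with it.

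With each set left out, the summed log2 ratio ranged from -0.07 to -0.00308 in all stromal-like, 0.15 to 0.30 in P1-like, -0.32 to -0.20 in P2-like and -0.07 to 0.16 in P3-like cells, and per fibrillar UMI from 0.04 to 0.20. Members past 1.5-fold higher ranged from 0 to 1 in all stromal-like, 1 to 2 in P1-like, 0 to 1 in P2-like and 1 to 3 in P3-like cells, and lower from 0 to 0, 1 to 3, 1 to 2 and 1 to 2. Other collagen-processing genes ranged from 3 to 6 higher and 1 to 4 lower. P3h3 in P1-like cells (-0.49) was 0.43 without WT4_p2. The cause of these shifts was not tested. No paired analysis was possible because each genotype was 1 mouse and no comparison between the genotypes came from a test. Depth limited Plod1 and Plod2 throughout and most members in P3-like cells.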

Other observations

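The unnamed clusters held Pcolce at 256 CPM in the Bbs8 KO and 244 CPM in the Bbs8 WT, a log2 ratio of 0.07 (-0.51 to 0.69), while 9 of the 10 genes stood lower in the KO there, from -0.11 (P3h3) to -1.10 (P4ha1). The share of all genes lower there was not computed, so this count is not read as a result about the members. Loxl1 had 295 and 463 CPM in these clusters (-0.64, -1.09 to -0.19). Per 1000 UMIs of the 5 fibrillar collagens the 10 genes summed were higher in the KO there, at 71.7 against 60.9 (log2 0.24, 0.04 to 0.43). The 6 clusters differed in make-up, from 1233 KO and 233 WT cells in the largest to 769 and 6 cells in another. These clusters held 36.4% of KO and 22.2% of WT cells, at median depths of 209 and 234 UMIs.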
